A study of Mus musculus with 4 samples.

Results

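The GDNF receptor chain Ret, its co-receptor Gfra1 and 4 genes linked to their signalling, Etv5, Lhx1, Egr2 and Dusp6, were described in cells sorted from mouse testis. The authors' deposited comparison table gave these 6 genes a name on 10 probe sets: 3 for Gfra1, 2 each for Etv5 and Egr2, and 1 each for Ret, Lhx1 and Dusp6. A probe set is a group of array probes summarised to 1 value, and the arrays held 45037 of them besides 64 control probe sets. The deposited table listed only probe sets that the authors had selected for a difference of at least 2-fold between the 2 populations compared here. The difference between the populations chose the genes, so their values are given as a description, and limma's counts of calls are printed beside those of all probe sets with nothing read from them. Other probe sets of these genes that the table does not list were not analysed here.

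All samples were cells from testes of 2-week-old Sox2GFP mice of the strain 129SvJae/BL6, whose green fluorescence reports Sox2, and no group received a treatment according to the labels. The groups were Sox2GFP+ckit- and Sox2GFP+ckit+ cells (ckit- and ckit+ cells below), separated by an antibody against ckit, the receptor for stem cell factor. Each group had 2 arrays, described as biological replicates, each from a pool of 20 testes, so the spread among single animals was not measured. RNA of 20000 to 90000 sorted cells per sample was purified and 5 ng of it was amplified.

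GDNF is secreted by Sertoli cells and binds GFRA1, a membrane-anchored co-receptor without a kinase of its own. The complex activates RET, a transmembrane tyrosine kinase, which signals through Src family kinases, phosphoinositide 3-kinase and the MAP kinases. In mouse testis this pathway maintains undifferentiated spermatogonia, the germ cells that include the stem cells, and GDNF raises Etv5, Egr2 and Lhx1 transcripts in cultured mouse germline stem cells. Cells that begin to differentiate acquire ckit.

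Sequence upstream of the start sites was examined because the 6 genes had the same direction between the populations. RefSeq windows of 250 bases before the start (GRCm38.p6) were given for 5 of the 6 genes, in 10 windows, of which 5 belonged to Egr2, 2 to Etv5 and 1 each to Gfra1, Lhx1 and Dusp6. Both strands were searched for the ETS motif ACCGGAAGT, the CArG box bound by serum response factor, the cAMP response element TGACGTCA and the TATA box TATAAA. Of 32817 windows over all genes, 0.801% held the ETS motif, 1.47% a CArG box, 1.55% the cAMP response element and 12.4% the TATA box. Of the 10 windows, 4 held a CArG box, all of Egr2 and at 2 distinct places, and 0 held any of the other 3. The shorter strings CCGGAA, the core of the ETS motif, and TGACGT, the first part of the cAMP response element, were added after the windows had been read. They occur in 12% and 6.46% of all windows. CCGGAA lies within the longer ETS motif and TGACGT within the longer cAMP response element. Of the 10 windows, CCGGAA was found in 2, of Egr2 and Gfra1, and TGACGT in 4, of Egr2 and Lhx1. The 4 windows with TGACGT held it at 2 distinct places, because overlapping windows of Egr2 share the same site. The matches below are shown with their neighbouring bases, 30 in all, with the match in capitals, to let the motifs of the genes be compared. They describe the letters only.
Egr2, CArG box, chr10:67537787-67537816, plus strand: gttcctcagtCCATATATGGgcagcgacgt
Egr2, CArG box, chr10:67537484-67537513, plus strand: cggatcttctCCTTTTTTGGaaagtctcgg
Egr2, TGACGT on the opposite strand, chr10:67537801-67537830, plus strand: atatgggcagcgACGTCAcgggtattgaag
Lhx1, TGACGT, chr11:84525567-84525596, minus strand: cacagactgccgTGACGTcggcgggcgctg
Gfra1, CCGGAA, chr19:58455537-58455566, minus strand: gagaaagtgaggCCGGAAagagaaagagga
The first CArG box of Egr2 began 72, 73 and 133 bases before the 3 start sites whose windows hold it, and the second began 72 bases before another start site.

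The arrays had medians of 6.39 to 6.42 and lower quartiles of 4.93 to 5.04 on the log2 scale. Kit, whose protein was used for the sort, was 9.68 and 9.62 in the ckit+ arrays and 6.87 and 6.78 in the ckit- arrays by its brighter probe set, in the direction of the labels. Of 25 genes listed for undifferentiated spermatogonia, 9 were named in the deposited table, all with higher levels in ckit- cells, and of 11 listed for differentiating spermatogonia 5 were named, all with higher levels in ckit+ cells. Those names come from the same selected table, so these directions are no independent check.

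Ret and Gfra1, the receptor pair for GDNF, had higher transcript levels in ckit- cells. The Ret probe set read 9.09 and 8.92 in the ckit- arrays and 6.71 and 6.82 in the ckit+ arrays (log2 expression, replicates 1 and 2). The populations were 2.10 apart even between their closest arrays. The means of 9.004 ± 0.12 and 6.76 ± 0.08 (SD, n = 2) differed by 2.24 ± 0.17 on the log2 scale, a 4.73-fold difference, where ± is limma's standard error.

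The brightest Gfra1 probe set, 1450440_at, read 9.09 and 9.24 in ckit- and 6.82 and 7.15 in ckit+ arrays. Its difference of 2.18 ± 0.19 (4.54-fold) was close in size to that of Ret. The probe set 1439015_at read 7.83 and 7.52 in ckit- and 5.47 and 6.17 in ckit+ arrays, and its ckit+ arrays lay 0.70 apart. It differed by 1.85 ± 0.27 (3.62-fold). The probe set 1421973_at read 7.02 and 7.17 in ckit- and 6.08 and 6.10 in ckit+ arrays, a difference of 1.01 ± 0.16 (2.01-fold). None of the 3 overlapped between populations. Of all probe sets, 24.2% likewise did not overlap, with higher ckit- levels. The difference of 1421973_at was the smallest of the 3 Gfra1 probe sets, although it and 1450440_at carry the same sequence identifier, BE534815, in the deposited table. The differences of this pair lay 1.17 apart on the log2 scale, more than the replicate gaps of either probe set (0.01 to 0.33). The difference of 1439015_at lay 0.33 from that of 1450440_at, less than the 0.70 between its own ckit+ arrays.

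Among the transcription factors, Etv5 and Egr2 had large gaps between the populations, while the size of the difference of Lhx1 was not settled. Etv5 encodes an ETS-family factor that is needed for the maintenance of spermatogonial stem cells in mice. Its probe set 1428142_at read 9.92 and 9.90 in ckit- and 8.002 and 8.12 in ckit+ arrays, and its probe set 1450082_s_at 9.32 and 9.37 against 7.56 and 7.60. The replicates of each population lay close together, with SDs of 0.01 to 0.08. The differences of 1.85 ± 0.16 (3.61-fold) and 1.77 ± 0.16 (3.41-fold) were 0.08 apart. The suffix s_at marks probes that by the manufacturer's convention may match transcripts of more than 1 gene.

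Egr2, a zinc finger factor and early response gene, was measured by probe sets that share the identifier X06746. The probe set 1427683_at read 11.19 and 10.83 in ckit- and 8.60 and 9.02 in ckit+ arrays, a difference of 2.20 ± 0.22 (4.58-fold). The probe set 1427682_a_at read 10.22 and 9.93 in ckit- and 7.80 and 8.12 in ckit+ arrays, a difference of 2.12 ± 0.20 (4.34-fold). Both showed the same order of arrays, with ckit- replicate 1 highest and ckit+ replicate 1 lowest. Egr2 is also induced by tissue dissociation, and it was the only one of 27 genes listed for that response with a name in the deposited table. The part of the dissociation in its difference was not tested.

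Lhx1, a LIM homeobox factor, was dim in ckit+ cells. It read 6.29 and 5.91 in ckit- and 5.39 and 4.69 in ckit+ arrays, so that 0.52 separated the closest arrays of the populations, while the ckit+ arrays were 0.70 apart. The measured means of 6.10 ± 0.27 and 5.04 ± 0.50 (SD, n = 2) lay 1.06 ± 0.27 apart. The ckit+ mean was under the upper end of the arrays' lower quartiles (5.04), where signal may not be separable from background, so no fold is given and the size is not settled. Its log2 difference (ckit+ minus ckit-) was -1.42 without ckit+ replicate 1 and -0.71 without ckit+ replicate 2.

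Dusp6, a phosphatase that inactivates ERK and acts in negative feedback on it, read 8.94 and 8.99 in ckit- and 7.54 and 7.93 in ckit+ arrays. The difference was 1.23 ± 0.19 (2.35-fold). The populations did not overlap, as for 24.2% of all probe sets in that direction, with 1.01 between their closest arrays.

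**Figure D1:**
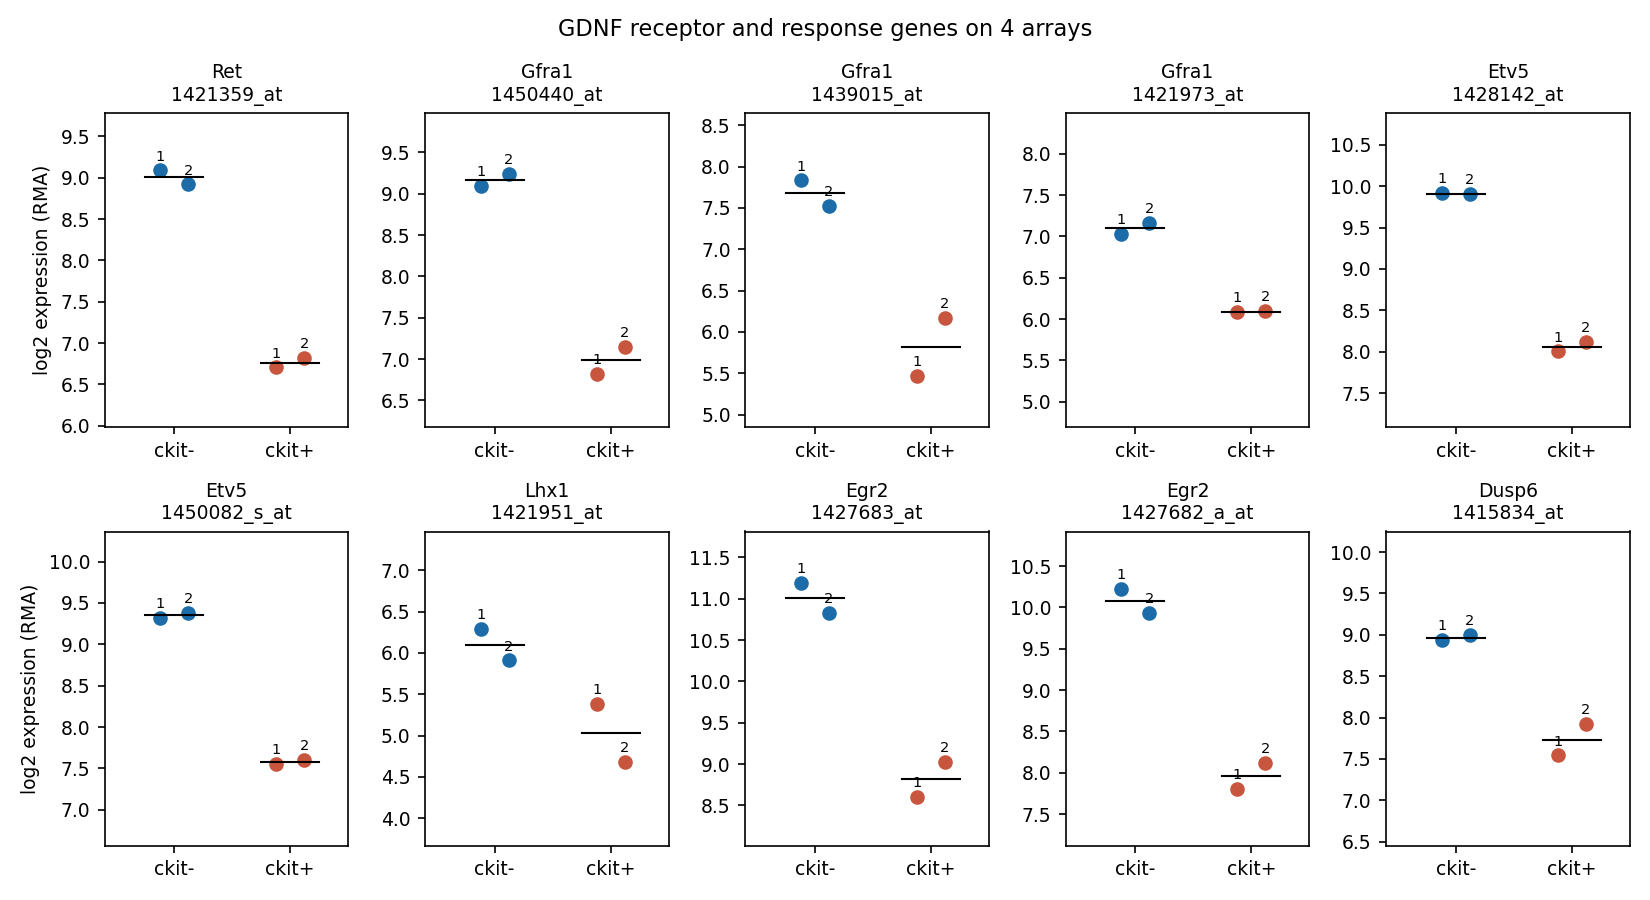
Log2 expression (RMA, vertical axis) of the 10 probe sets in ckit- (blue) and ckit+ (red) arrays, with replicate numbers above the points and the group mean as a line; each panel spans the same number of log2 units. In every panel both ckit- arrays lie above both ckit+ arrays, by 0.52 for Lhx1 and up to 2.10 for Ret. This order held for 24.2% of all probe sets.

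The 10 probe sets did not overlap between populations in 10 of 10 cases with higher ckit- levels, which was so for 24.2% of all probe sets. Their median log2 difference (ckit+ minus ckit-) was -1.85, against -0.0046 over all probe sets. Limma, which pools the spread over all probe sets, called 6 of the 10 at an adjusted p under 0.05, all higher in ckit- cells, against 0.309% of all probe sets in either direction and 0.193% in that direction. Lhx1, Dusp6 and the Gfra1 probe sets 1439015_at and 1421973_at were not called. Since the genes were chosen through a table selected on this contrast, nothing is read from these counts. With 2 pools per population the p-values measure only the spread between pools, and the smallest p that an exact permutation test allows with so few arrays is 0.333. With any 1 array left out, limma called 0 of all 45037 probe sets, and so 0 of the 10. In bulk samples such as these, fewer cells that carry a transcript and less transcript per cell cannot be told apart.

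Ranked over all 45037 probe sets from the highest in ckit- cells, Ret stood at 16, Egr2 at 19 and 24, and Gfra1 at 20, 43 and 360. Etv5 stood at 44 and 59 and Dusp6 at 192. No rank is given for Lhx1, whose difference was not settled in size. In all, 367 probe sets (0.815%) were at least 2-fold higher in ckit- cells.

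**Figure D2:**
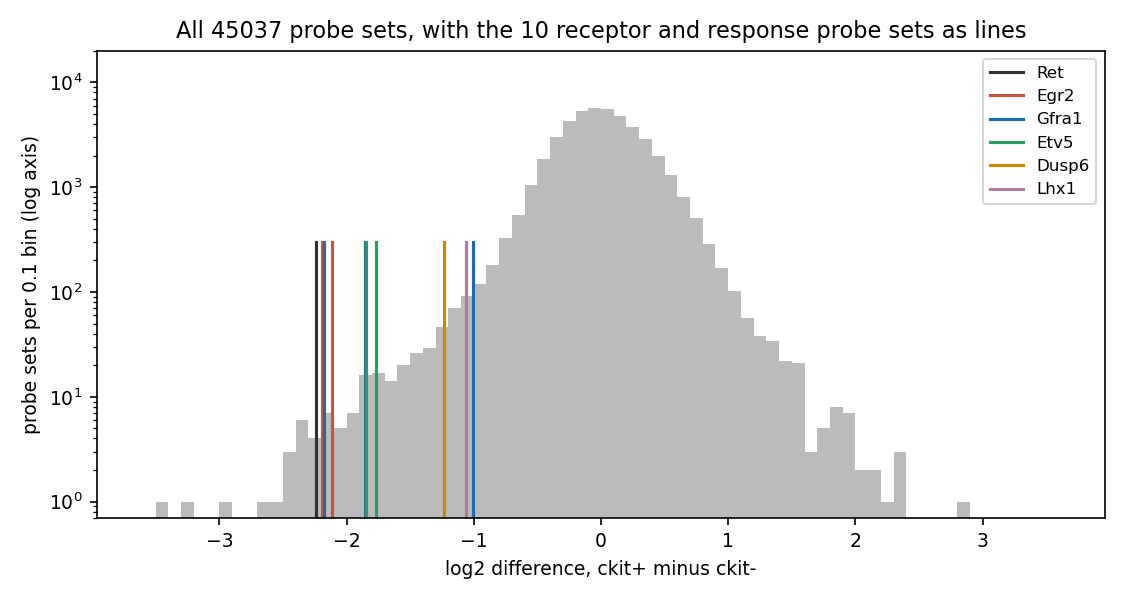
Histogram of the log2 difference (ckit+ minus ckit-, horizontal axis) over 45037 probe sets, with the number per bin on a log axis; coloured lines mark the 10 probe sets. They fall between -2.24 (Ret) and -1.01 (a Gfra1 probe set), in the left tail.

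In the authors' deposited table, the members with the lowest ratios were Lhx1 at 2.07 and the Gfra1 probe set 1421973_at at 2.08. The highest adjusted p-values of the members in the authors' deposited table were 0.050 for Lhx1, 0.049 for Dusp6 and 0.046 for the Gfra1 probe set 1439015_at. Probe sets just outside that table's limits carry no name here. The ratios of the 10 probe sets in the authors' deposited table ran from 2.07 to 4.6, the latter for Egr2. The authors' deposited table gave lower levels than the RMA values for all 10 probe sets in both populations, by between 0.08 and 0.81. The sizes of the log2 differences changed less: 8 of the 10 agreed within 0.1. The exceptions were Ret, at 2.04 in the authors' deposited table against 2.24, and Gfra1 probe set 1439015_at, at 2.06 against 1.85. Replicate spread changed more for Lhx1, whose ckit- standard error was 0.021 in the authors' deposited table and 0.19 in the RMA values.

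The replicates of the ckit+ population differed in a common direction for these genes. In 9 of the 10 probe sets, replicate 2 was higher than replicate 1, that is, nearer to the ckit- level, the exception being Lhx1. Over all probe sets this was so for 48.3%, and among the 196 probe sets that the deposited table lists as higher in ckit- cells for 132 (67.3%). The median gap, replicate 2 minus replicate 1, was 0.22 for the 10 probe sets, 0.08 for those 196 and -0.01 over all. In ckit- cells 4 of the 10 were higher in replicate 2, against 50.6% of all probe sets. Of the Kit probe sets, the brighter read 9.68 and 9.62 in ckit+ replicates 1 and 2, and the other, 1415900_a_at, 7.91 and 8.27. Probe sets of the same gene are not independent, and whether a different mix of cells in the ckit+ pools had a part was not tested. Leaving out ckit+ replicate 2 gave a median log2 difference of -2.06 and leaving out ckit+ replicate 1 gave -1.77, against -1.85 with all arrays.

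**Figure D3:**
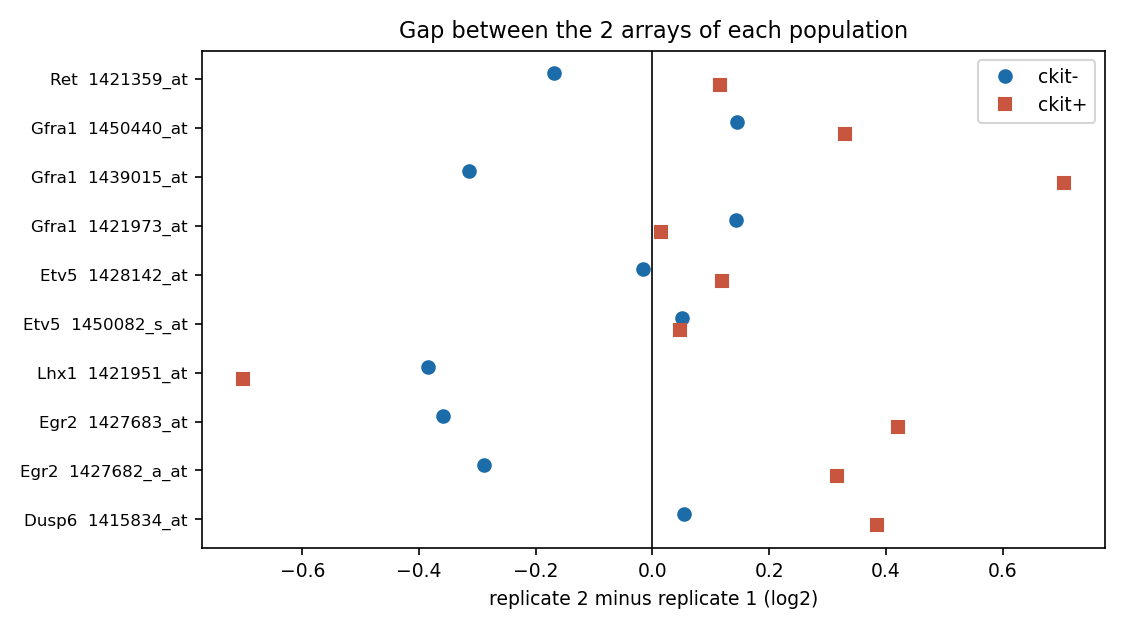
Gap between the arrays of each population (replicate 2 minus replicate 1, log2, horizontal axis) for the 10 probe sets, ckit- as circles and ckit+ as squares. The ckit+ squares lie right of 0 in 9 of 10 rows, from 0.01 to 0.70, with Lhx1 at -0.70.

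Other genes of the pathway were taken from a list of 56 ligands, co-receptors, mediators, response genes and feedback inhibitors. Of these, 6 had a name in the deposited table. By limma, 2 passed with higher levels in ckit- cells (0.193% of all probe sets), 1 with higher levels in ckit+ cells (0.115% of all probe sets) and 3 did not pass. The table's selection sets these shares, so they are a description. Gdnf itself and the other ligands on the list were not among the named genes and were not analysed here.

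Among the surface molecules, the syndecans went in opposite directions. Sdc4, a heparan sulfate proteoglycan that can bind growth factors, read 12.73 and 12.80 in ckit- and 10.96 and 11.54 in ckit+ arrays by its brighter probe set. It differed by 1.52 ± 0.23 (2.86-fold) and its other probe set by 1.33 ± 0.20 (2.51-fold), both higher in ckit- cells and neither past the threshold. Sdc1, of the same family, read 8.65 and 8.65 in ckit- and 10.02 and 9.99 in ckit+ arrays by its only named probe set, 1437279_x_at. It was called as higher in ckit+ cells by 1.35 ± 0.16 (2.55-fold), and its direction rests on that probe set alone. Ncam1, which can act with GFRA1 as a receptor for GDNF, read 4.66 and 4.50 in ckit- and 3.88 and 3.74 in ckit+ arrays, all below the lower quartiles, so its levels may not be separable from background. Tspan8, a tetraspanin of the cell surface, read 7.48 and 6.85 in ckit- and 5.11 and 5.46 in ckit+ arrays, a difference of 1.88 ± 0.26 that did not pass.

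The response gene T (Brachyury), a T-box factor, read 5.97 and 5.94 in ckit- and 3.86 and 3.76 in ckit+ arrays. It was called as higher in ckit- cells, with no size given because both ckit+ arrays were below the lower quartiles. Nefm, a neurofilament chain, read 7.93 and 7.90 in ckit- and 6.21 and 6.42 in ckit+ arrays and was called as higher in ckit- cells by 1.60 ± 0.17 (3.03-fold).

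A further 4 signalling genes of the deposited table were chosen after their values had been seen. Dusp9, like Dusp6 an ERK phosphatase, had the opposite direction: its brighter probe set 1454737_at read 7.56 and 6.78 in ckit- and 8.43 and 8.63 in ckit+ arrays, and both of its probe sets were higher in ckit+ cells, by 1.36 ± 0.27 and 0.75 ± 0.17. Dusp10, a phosphatase of the stress-activated kinases, was higher in ckit- cells by 0.93 ± 0.19. Il17rd, an inhibitor of FGF signalling to ERK also known as Sef, read 9.31 and 9.19 in ckit- and 8.14 and 8.01 in ckit+ arrays, a difference of 1.17 ± 0.16 (2.26-fold). Grb10, an adaptor that binds receptor tyrosine kinases, was higher in ckit+ cells by 3 probe sets, with differences of 1.48 ± 0.16 to 1.87 ± 0.16. Of these genes' probe sets, limma called 2, both of Grb10 and higher in ckit+ cells, against 0.115% of all probe sets in that direction. Since the genes were chosen by their values, nothing is read from this count.

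**Figure D4:**
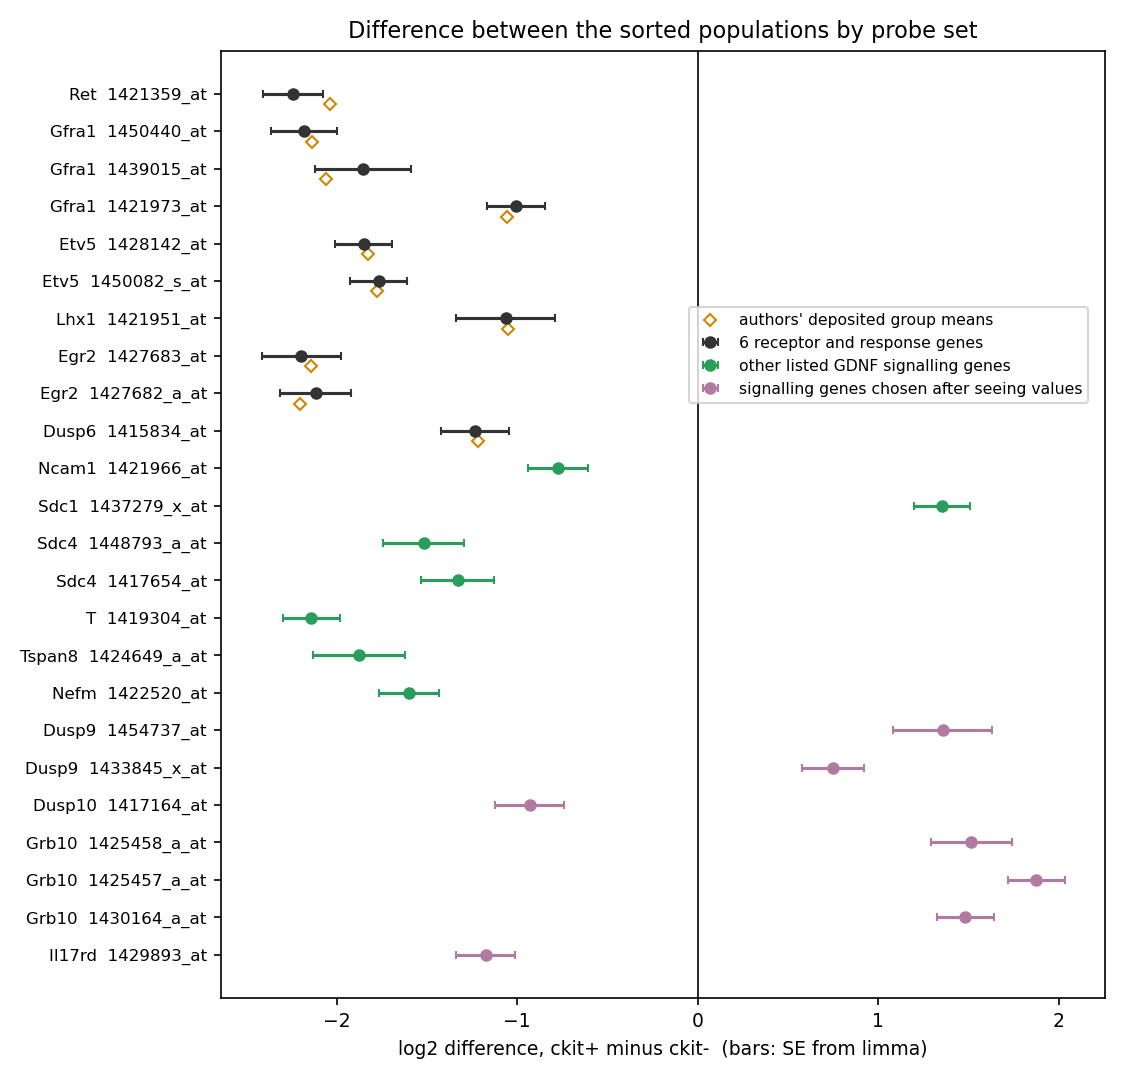
Log2 difference (ckit+ minus ckit-, horizontal axis) by probe set with limma's standard error as bars, for the 6 receptor and response genes (black), the other listed genes (green) and those chosen after seeing values (purple); open diamonds give the authors' deposited group means. All 10 black points lie left of 0, while Sdc1, Dusp9 and Grb10 lie right of it.

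The named gene with the profile most like each of the 6 was sought among 204 other genes, by the root mean square distance between log2 profiles over the 4 arrays, each centred on its mean. Dusp6 had the closest neighbours, Fli1 (an ETS-family factor) at 0.02, Pitpnc1 at 0.03 and Pip4k2a at 0.04, against a median distance of 0.20 to the named genes with the same direction. For Etv5 they were Six4 at 0.05, Sox13 at 0.06 and Med14 at 0.07 (median 0.30). Ret was nearest to Large2 at 0.08, then Fgd5 and Rasgrp2, both at 0.095 (median 0.49), and Gfra1 to Rspo2 at 0.10, Pygl at 0.11 and Rasgrp2 at 0.11 (median 0.47). Egr2 was nearest to Foxc2 at 0.14, Arhgef15 at 0.15 and Fgd5 at 0.15 (median 0.48). Lhx1 was nearest to Atoh8 at 0.13, Rhebl1 at 0.13 and Dusp10 at 0.18 (median 0.36). Among the 6 themselves, Ret and Egr2 were 0.13 apart and Ret and Gfra1 0.14, while Lhx1 was at least 0.42 from each of the other 5. With 4 arrays these distances mostly reflect the size of the difference between populations.

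Few genes of the lists for other cell types that a testis sort could hold were named. Named genes outside these lists were not assigned to cell types, so further markers of such cells may be among them. Of 16 endothelial genes, Plvap and Fgd5 were named, and limma called both as higher in ckit- cells, against 0.193% of all probe sets. Both names come from the table selected on this contrast, so the calls are a description. Plvap, a protein of endothelial caveolae, read 6.77 and 6.91 in ckit- and 5.40 and 5.39 in ckit+ arrays, and Fgd5, an exchange factor for Cdc42, 8.97 and 8.56 against 6.44 and 6.47. Fgd5 was also among the 3 named genes nearest in profile to Ret and to Egr2. Of 5 genes listed for peritubular myoid cells, Tagln (transgelin) was named, with 6.81 and 6.89 against 5.97 and 6.001, and was not called. None of the 14 Sertoli, 7 Leydig or 12 leukocyte genes was named, so their levels were not analysed here. The part of other cells in the differences of the receptor and response genes was not tested.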

How the data were processed

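Per the submitters' processing notes, the authors made the log2 expression values with RMA (background correction, quantile normalization and probe set summary); its version and the array model are not given in the sources used here. Per the file headers, the authors' deposited comparison table covers 374 probe sets at least 2-fold apart and gives log2 group means, a ratio and p-values, before and after adjustment of the authors' t-test for 605 tests.

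Only probe sets of that table were named, by matching its identifiers and descriptions to RefSeq genes or to a separate list of full names. In this way 243 of its probe sets were paired with 210 genes by RefSeq accession (61), symbol (97) or full name (85). Two-sided tests were made by limma 3.58.1 (R 4.3.3; a linear model with empirical Bayes variances), calling probe sets under an adjusted p of 0.05 by the Benjamini-Hochberg method, on all 45037 non-control probe sets and 4 arrays, with no filter and no covariates. The number of arrays limits the precision. Quantile normalization hides a shift of all transcripts.

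The genes and gene lists were chosen with earlier results of these data known. The 10 probe sets that the deposited table lists for the 6 genes, every named gene of the pathway and somatic marker lists, Kit, and the 3 named genes with the nearest profile were described.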

Additional observations from a re-analysis of the deposited data

How the results depend on the processing

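The count of probe sets called by limma over all 45037 was 139. It rose to 554 when a replicate block was added and to 419 with an intensity trend. By the methods' t-test the count was 1, with 5346 probe sets at an unadjusted p under 0.05. That test called 0 of the 10 receptor and response probe sets and 0 of the pathway genes. Its p-values were adjusted here over all 45037 probe sets. The authors adjusted theirs over fewer tests, and their deposited table lists all 10 probe sets. The t-test counts given here therefore do not repeat the authors' own test. Of the 10, limma called 6, against 10 with the replicate block and 8 with the trend. Of the pathway genes it called 3, against 5 with the block and 5 with the trend. Deviations from the group means correlated at 0.26 between arrays of the same replicate number. With 2 pairs, and numbers whose meaning the labels leave unstated, this is a hint from the data that does not establish pairing, and the block is an alternative only. With any 1 array left out, limma called 0 probe sets, 0 of the 10 and 0 pathway genes, with 4513 to 6422 probe sets at an unadjusted p under 0.05. A lone array is then assumed to vary like the other group, and fewer degrees of freedom remain. The median log2 difference of the 10 was then -2.06 to -1.77. Renewed quantile normalization, median centring and a filter on probe sets above the median level gave 133, 142 and 99 calls over all probe sets, 6 of the 10 each time and 2, 3 and 2 pathway genes; the filter removed Lhx1 and kept 9 of the 10. Renewed quantile normalization moved the log2 differences of both Etv5 probe sets by more than their own replicate SD, to -1.96 and -1.87. Those SDs were small (0.01 to 0.08), and the shift was not particular to Etv5. The same setting gave -1.34 for Dusp6 against -1.23, and -2.23 and -2.30 for Egr2 against -2.12 and -2.20. Lhx1 and the Gfra1 probe set 1421973_at went slightly the other way. The cause of the shifts was not tested.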
